A study of Mus musculus with 24 samples.

Results

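The genes described here are 10 markers of pericytes or components of Notch signalling: the pericyte markers Rgs5, Cspg4, Mcam, Kcnj8 and Abcc9, and the Notch pathway genes Notch1, Notch3, Jag1, Hes1 and Heyl. They were chosen by symbol, with earlier results of these data known, and every probe annotated to them was taken, 14 probes of the 25697 on the array. The array carried probes for 16593 named genes, of which 7576 passed the detection filter, and 9 of the 10 described genes were among those that passed. Jag1 did not pass. To pass, a gene needed 1 probe with a detection p-value below 0.01 on 6 or more of the 24 arrays.

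RNA of FAPs (fibro/adipogenic progenitors), mesenchymal cells that lie between muscle fibres and can become fibroblasts or adipocytes, was measured on 1-colour Illumina bead arrays. Old activated FAPs came from mice of 20 to 24 months, 3 days after 50 µl of 50% glycerol had been injected into the muscle, and old quiescent FAPs from uninjured muscle at that age. Young activated and young quiescent FAPs were the same 2 states at 2 to 4 months. All 4 groups were wild-type male C57BL/6J mice, with hindlimb muscles (tibialis anterior, gastrocnemius, quadriceps) pooled before sorting and 6 arrays per group that the labels call biological replicates. The sources used here give neither the surface markers of the sort nor a chip or scan batch. Each group's array names carry a letter of their own, and the effect of what that letter stands for and the effect of the group cannot be told apart.

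Pericytes wrap capillaries from the outside and share a basement membrane with the endothelium, and they hold contact with it through Notch ligands on one cell and Notch receptors on the other. A ligand such as Jag1 pulls on a Notch receptor, proteases then release the receptor's intracellular part, and that part joins the DNA-binding protein Rbpj to switch on targets of the Hes and Hey families. Notch3 is the receptor known from mural cells, meaning pericytes and vascular smooth muscle, Notch1 and Notch4 are known from endothelium, and Notch1 also acts in many stem and progenitor cells, muscle satellite cells among them.

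The sequences of 3 promoters are shown because they belong to the gene with the largest change among the 9 that passed and to a pair of neighbouring genes whose products form 1 channel. RefSeq promoter windows on build GRCm38.p6, with 250 bases before and 50 after the start of the gene, were found for 8 of the 10 genes. Hes1 and Heyl were the other two. The windows below are at chr1:169655251-169655550 on the plus strand for Rgs5, at chr6:142571565-142571864 on the minus strand for Kcnj8 and at chr6:142702225-142702524 on the minus strand for Abcc9. Capitals mark TGGGAA, the core of the sequence that Rbpj binds.
Rgs5: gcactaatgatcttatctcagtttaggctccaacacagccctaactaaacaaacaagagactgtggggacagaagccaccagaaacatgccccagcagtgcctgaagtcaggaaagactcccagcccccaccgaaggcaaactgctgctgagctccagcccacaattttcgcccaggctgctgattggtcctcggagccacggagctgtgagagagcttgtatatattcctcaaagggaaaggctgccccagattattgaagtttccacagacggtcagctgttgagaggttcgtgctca
Kcnj8: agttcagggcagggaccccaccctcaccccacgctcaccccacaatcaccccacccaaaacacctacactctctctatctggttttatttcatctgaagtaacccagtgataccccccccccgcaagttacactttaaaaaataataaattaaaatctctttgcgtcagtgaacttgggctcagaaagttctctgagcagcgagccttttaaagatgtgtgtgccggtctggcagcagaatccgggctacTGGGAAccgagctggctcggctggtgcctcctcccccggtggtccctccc
Abcc9: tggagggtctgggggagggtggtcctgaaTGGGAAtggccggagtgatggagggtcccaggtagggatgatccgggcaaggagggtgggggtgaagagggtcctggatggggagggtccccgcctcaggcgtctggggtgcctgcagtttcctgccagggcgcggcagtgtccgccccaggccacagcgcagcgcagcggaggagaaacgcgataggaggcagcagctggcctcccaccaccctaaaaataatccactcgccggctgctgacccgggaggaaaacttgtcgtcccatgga
TGGGAA, searched on both strands, stood once in the Kcnj8 window, beginning at position 1 of the transcript, and once in the Abcc9 window, beginning at position -221 relative to its start. None of the other 6 windows held these letters, and 25.6% of 32851 mouse promoter windows of the same length did. The E-box CACGTG, searched in the same way, had no match in the 8 windows, against 7.15% of all windows. The same held for the letters TATAAA (13.6% of all windows) and for the CArG box bound by serum response factor (1.63%). Kcnj8 and Abcc9 follow each other on chromosome 6 with no coding gene between them.

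In young FAPs 6 of the 9 were called lower at an adjusted p under 0.05 in limma: Rgs5, Mcam, Kcnj8, Notch1, Hes1 and Heyl. Of all 7576 genes, 33.8% were called in that comparison and 16.7% were called lower. In old FAPs Notch1, Hes1 and Heyl were called lower, 3 of 9, where 28.4% of all genes were called and 14.0% were called lower. The median log2 change of the 9 genes was -1.06 in young and -0.77 in old FAPs, with medians over all genes of -0.01 and -0.00. No old activated array detected Abcc9. Setting it to no change could not move the old median, because its fitted change already lay above that median. No difference between the ages was called for any of the 9, in either state.

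**Figure D1:**
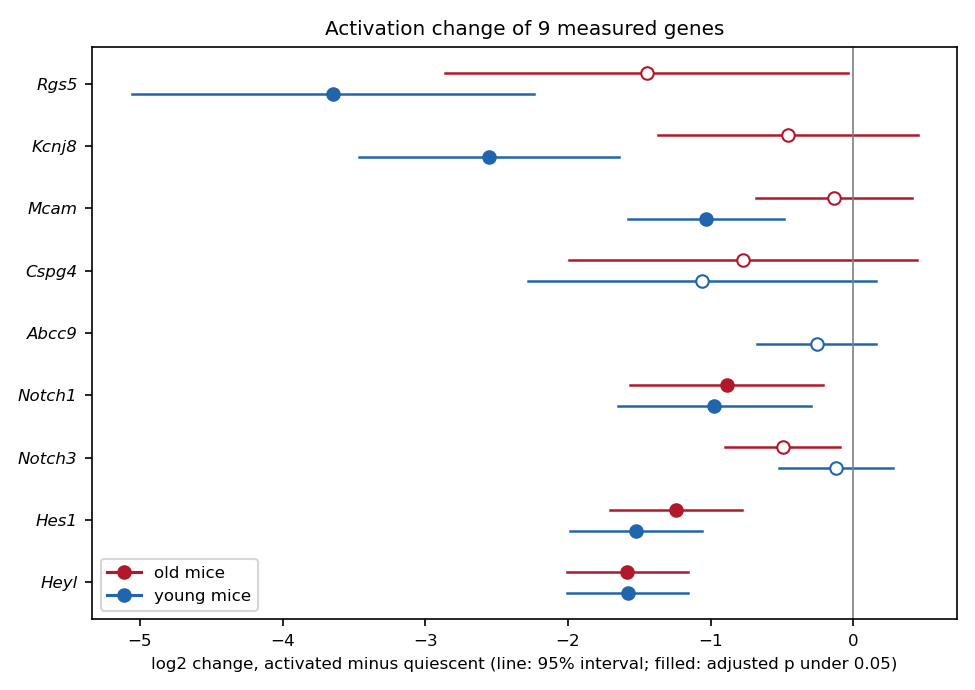
Log2 change with activation (activated minus quiescent, x axis) of the 9 measured genes in old and young FAPs, from limma, with 95% intervals and filled symbols for an adjusted p under 0.05. Abcc9 in old FAPs is left out because no activated array detected it. Hes1 and Heyl are filled at both ages, while Rgs5 and Kcnj8 are filled in young.

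Rgs5 encodes a GTPase-activating protein that shortens G-protein signals and is among the strongest transcripts of brain and muscle pericytes. Its log2 level in young activated FAPs had a lowest value of 5.77, a median of 7.00 and a highest value of 8.59, against 10.15, 10.79 and 11.36 in young quiescent FAPs. The 2 young groups did not overlap. Among the 9 genes, 4 lay apart and lower in this way in young FAPs, and 10.9% of all genes did. Rgs5 was 12.5-fold lower in young activated FAPs (log2 change -3.65 ± 0.68 SE, limma adjusted p 0.000189, n = 6 per group), the largest fold among the 9.

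In old activated FAPs the lowest, median and highest Rgs5 levels were 4.16, 8.39 and 9.20, against 7.79, 9.25 and 11.05 in old quiescent FAPs. These groups overlapped, and the lowest old activated value, from array 4, was the one array of the 24 on which Rgs5 was not detected. The log2 change in old FAPs was -1.45 ± 0.68 (adjusted p 0.119), and without old activated array 4 it was -0.70 (adjusted p 0.339). The young and old changes differed by 2.20 ± 0.97 on the log2 scale (adjusted p 0.517). Leaving out old quiescent array 2 and old activated array 4, an alternative chosen after seeing the data, turned this difference into a call (3.29, adjusted p 0.0254).

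Kcnj8 and Abcc9 encode the pore-forming and the sulfonylurea-receptor subunit of the ATP-sensitive potassium channel of vascular mural cells, which hyperpolarises them and relaxes the vessel. Kcnj8 had log2 levels of 4.57, 5.18 and 5.60 (lowest, median, highest) in young activated FAPs, against 6.82, 7.48 and 8.59 in young quiescent FAPs. The groups lay apart, and the gene was detected on 4 of 6 activated and 6 of 6 quiescent arrays. It was 5.87-fold lower in young activated FAPs (log2 change -2.55 ± 0.44, adjusted p 7.29e-05).

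Kcnj8 levels in old activated FAPs ran 4.64, 5.79 and 6.97, against 4.65, 6.34 and 7.49 in old quiescent FAPs. The 2 old groups covered nearly the same range, with a log2 change of -0.46 ± 0.44 (adjusted p 0.475) that ran between -0.78 and -0.21 when 1 array was left out. Old quiescent FAPs lay below young quiescent FAPs by 1.43 on the log2 scale, in 6 of 6 arrays relative to the young mean, but the fit did not call this (log2 difference -1.43 ± 0.44, adjusted p 0.131). The difference between the activation changes, 2.09 ± 0.62, had a 95% interval of 0.81 to 3.38 and an adjusted p of 0.194.

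Abcc9 was near the detection limit throughout. Of its 3 probes, 1 passed the filter, with 1, 4, 0 and 2 detected arrays of 6 in young activated, young quiescent, old activated and old quiescent FAPs, and the other two were detected on no array. The median log2 level was 4.62 in young activated and 4.91 in young quiescent FAPs, and 4.79 in old activated and 4.80 in old quiescent FAPs. All 4 groups overlapped, no change was called (-0.26 ± 0.20 in young, adjusted p 0.35), and no fold is given for old FAPs, where the gene was not well above background in any activated array. Of the 3 genes whose promoters are printed above, Rgs5 and Kcnj8 had a called change in young FAPs and Abcc9 had none.

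**Figure D2:**
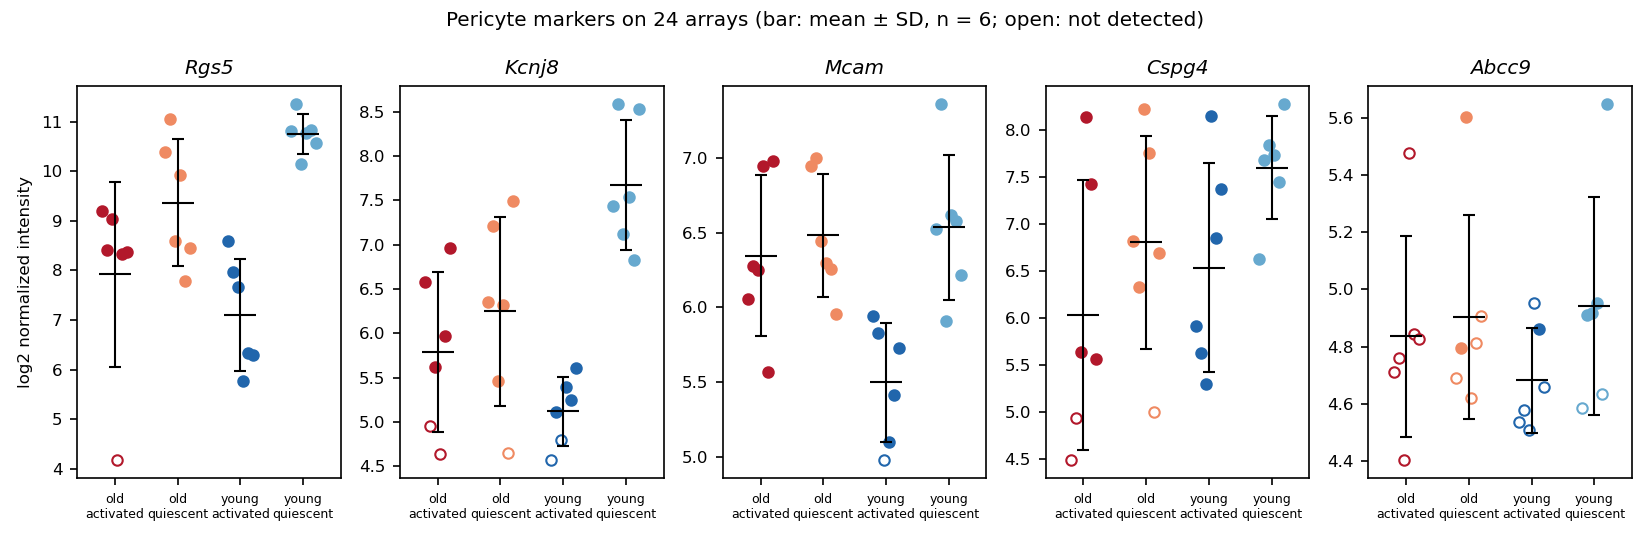
Log2 level of the 5 pericyte markers (y axis) on each array of the 4 groups (x axis), 6 arrays each, with the group mean and SD and open symbols where the gene was not detected. Rgs5 and Kcnj8 stand lower in young activated than in young quiescent FAPs with no overlap, and 1 old activated array has Rgs5 at 4.16.

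Mcam encodes a cell adhesion molecule of the immunoglobulin superfamily found on pericytes, smooth muscle and endothelium, and has 3 probes. On the brightest, the lowest, median and highest log2 levels were 4.98, 5.57 and 5.94 in young activated FAPs, against 5.91, 6.55 and 7.36 in young quiescent FAPs. The ranges overlapped at their ends. Mcam was 2.05-fold lower in young activated FAPs (log2 change -1.04 ± 0.27, adjusted p 0.00374), in 6 of 6 arrays relative to the quiescent mean. Levels in old activated FAPs were 5.57, 6.26 and 6.98, against 5.95, 6.37 and 7.00 in old quiescent FAPs, and these overlapped almost fully (-0.14 ± 0.27, adjusted p 0.757).

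The probes of Mcam did not give the same calls. Another probe was lower in young activated FAPs by 0.92 and was called (log2 change -0.92, adjusted p 0.0141), and the remaining probe had a log2 change of -1.04 that was not (adjusted p 0.0994). In old FAPs these probes had changes of -0.23 and 0.78, neither called. Old activated FAPs lay above the young activated mean in 6 of 6 arrays on the brightest probe, by 0.85 ± 0.27 (adjusted p 0.166), and the groups overlapped.

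Cspg4, the proteoglycan used to sort pericytes, oligodendrocyte precursors and some stromal cells, had no called difference. Its log2 levels were 5.30, 6.38 and 8.15 in young activated FAPs, against 6.62, 7.70 and 8.28 in young quiescent FAPs. The old activated values were 4.49, 5.60 and 8.14, against 5.00, 6.75 and 8.23 in old quiescent FAPs. The spread within a group was wide and all groups overlapped, with SDs between 0.55 and 1.44. The log2 changes were -1.06 ± 0.59 in young (adjusted p 0.178) and -0.77 ± 0.59 in old FAPs (adjusted p 0.355).

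Among the receptors, Notch1 was detected on all 24 arrays. Its log2 levels were 8.29, 8.86 and 9.66 in young activated FAPs, against 9.56, 9.74 and 10.27 in young quiescent FAPs. In old activated FAPs they were 7.33, 9.15 and 9.55, against 9.02, 9.79 and 10.53 in old quiescent FAPs. Activated arrays lay lower at both ages, with ranges that overlapped slightly in young and more in old. Notch1 was 1.97-fold lower in young (log2 change -0.98 ± 0.33, adjusted p 0.0230) and 1.85-fold lower in old activated FAPs (-0.89 ± 0.33, adjusted p 0.0445). At each age 6 of 6 activated arrays lay below the quiescent mean.

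The Notch1 calls were close to the threshold. The young call was lost without young activated array 3 or 6 or young quiescent array 5, with adjusted p up to 0.0596, and also without a detection filter (adjusted p 0.0534). The old call was lost without any one of old activated arrays 1, 3 and 4 or old quiescent arrays 1, 2, 3 and 6. It was also lost without young quiescent array 4, and adjusted p in these omissions reached 0.125. Over all omissions of 1 array, the old log2 change lay between -1.03 and -0.59.

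Notch3, the mural cell receptor, stood close to the detection limit and had no called change. Its log2 levels were 4.90, 5.07 and 5.19 in young activated FAPs, against 4.84, 5.05 and 5.89 in young quiescent FAPs, a log2 change of -0.12 ± 0.19 (adjusted p 0.68). They were 4.39, 4.74 and 5.02 in old activated FAPs, against 4.65, 5.27 and 5.76 in old quiescent FAPs. Notch3 was detected on 1 of 6 old activated and 4 of 6 old quiescent arrays, and on 6 and 5 arrays of young activated and young quiescent FAPs. The old change, -0.50 ± 0.19, had an adjusted p of 0.0589, and it was called without any one of old activated array 4, old quiescent arrays 3 and 5, and young quiescent array 2, down to an adjusted p of 0.0216. It was also called with cyclic loess normalization (adjusted p 0.0334) and with array weights (0.0383).

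Jag1, the ligand of the set, was detected on none of the 24 arrays, and its lowest detection p was 0.0213. Its median intensity was 101 in young activated, 109.9 in young quiescent, 106.5 in old activated and 102 in old quiescent FAPs, all within the background of the arrays, so no fold is given. A probe that does not rise above background does not show that the transcript was absent.

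Hes1 encodes a transcriptional repressor that is a direct Notch target in many cell types. Its log2 levels were 5.17, 5.51 and 6.07 in young activated FAPs, against 6.52, 7.09 and 7.56 in young quiescent FAPs. In old activated FAPs they were 4.46, 5.50 and 5.90, against 6.23, 6.57 and 7.06 in old quiescent FAPs. The states did not overlap at either age. Hes1 was 2.88-fold lower in young (log2 change -1.53 ± 0.22, adjusted p 1.02e-05) and 2.37-fold lower in old activated FAPs (-1.24 ± 0.22, adjusted p 0.000207).

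Heyl encodes a Hey-family repressor that is a Notch target in mural cells. Its log2 levels were 4.39, 4.96 and 5.72 in young activated FAPs, against 6.04, 6.54 and 7.07 in young quiescent FAPs. Among old activated FAPs they were 4.27, 4.40 and 4.65, against 5.69, 5.94 and 6.36 in old quiescent FAPs. Again the states lay apart at both ages, and the gene was detected on 5 and 1 of 6 activated arrays in young and old FAPs and on 6 of 6 quiescent arrays at either age. Hes1 and Heyl were the 2 of 9 genes whose old groups did not overlap and lay lower, as 4.57% of all genes did.

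Heyl was 2.99-fold lower in young (log2 change -1.58 ± 0.21, adjusted p 1.96e-06) and 3.00-fold lower in old activated FAPs (-1.58 ± 0.21, adjusted p 4.61e-06). The difference between the 2 changes had a 95% interval of -0.60 to 0.60. Because Heyl was detected on 1 of 6 old activated arrays, the size of the old change, and so its likeness to the young change, is uncertain. In each state Heyl was lower in old than in young FAPs, in 6 of 6 arrays relative to the young mean, though the groups overlapped. The log2 difference was -0.55 ± 0.21 in quiescent (adjusted p 0.232) and -0.55 in activated FAPs (adjusted p 0.247), and neither was called.

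**Figure D3:**
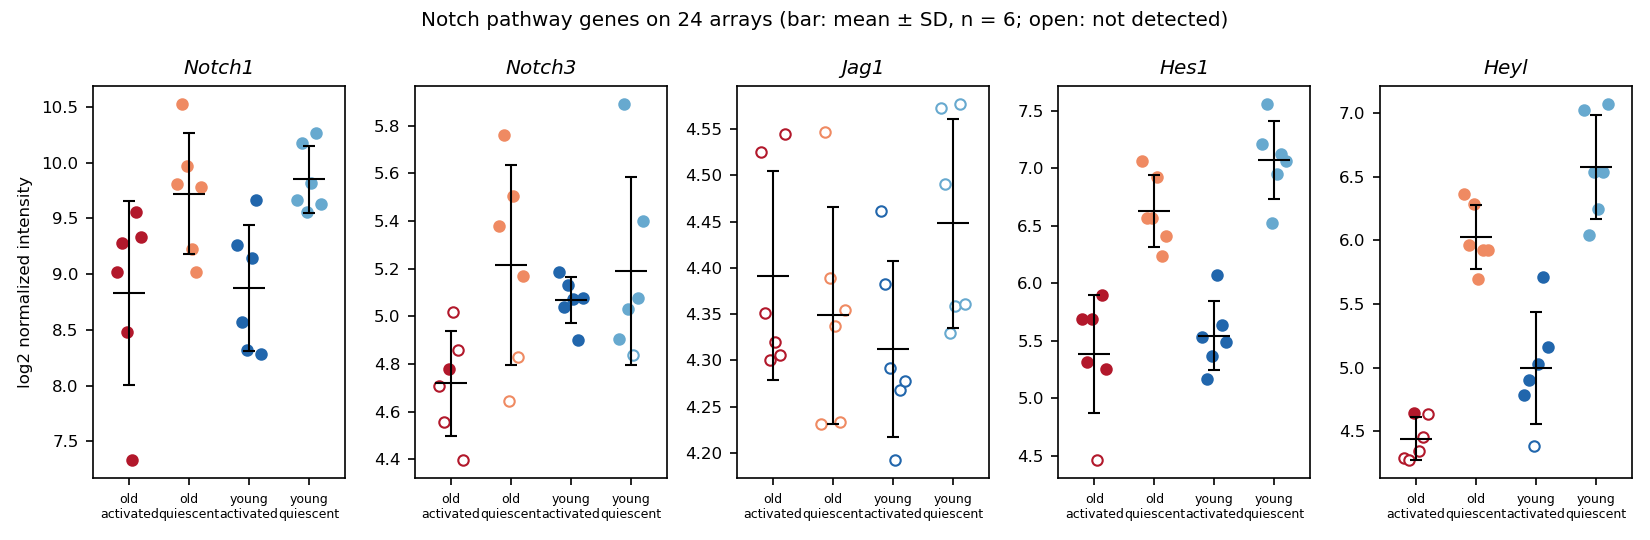
Log2 level of the Notch pathway genes (y axis) on each array of the 4 groups (x axis), 6 arrays each, with the group mean and SD and open symbols where the gene was not detected. Hes1 and Heyl separate activated from quiescent FAPs at both ages, Notch1 is lower in activated FAPs with overlap, and Notch3 and Jag1 lie near background.

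None of the 9 genes was called between old and young quiescent FAPs, where 0.607% of all genes were called, and the smallest adjusted p among them was 0.131, for Kcnj8. None was called between old and young activated FAPs either (0.277% of all genes called), with 0.166 for Mcam as the smallest. The difference between the old and young activation changes was called for none of the 9 (0.198% of all genes called), and the smallest adjusted p was 0.194, for Kcnj8. The numbers of genes behind these shares, 46, 21 and 15, were not stable: leaving out 1 array gave 28 to 105, 10 to 102 and 8 to 39. By these tests the 3 pericyte markers called in young and not in old FAPs are not shown to respond differently at the 2 ages.

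The called changes were smaller in size where background was not subtracted. On the authors' deposited log2 values, processed without background correction, the log2 changes in young FAPs were -2.88 for Rgs5, -1.23 for Kcnj8, -0.43 for Mcam, -0.84 for Notch1, -0.70 for Hes1 and -0.60 for Heyl, with the same genes called. In old FAPs they were -0.74 for Notch1 and -0.50 for both Hes1 and Heyl, also called.

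The other genes of the Notch pathway were counted in the same way. Of 44 listed, 41 had probes and 23 passed the filter. In young FAPs 8 of the 23 fell with activation and 0 rose, where 33.8% of all genes were called and 16.7% were called lower. The median log2 change of the 23 was -0.55 (-0.46 with 2 undetected genes at their bound). In old FAPs 6 fell and 1 rose, with a median of -0.15, where 28.4% of all genes were called and 14.0% were called lower. The activation counts of the lists below are to be read beside these same shares. Transcripts of Notch2, of the ligands Dll1, Dll3 and Jag2, of the targets Hes5 and Hey2 and of 6 further genes were detected on no array.

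Among those that fell, Notch4, the endothelial receptor, was 4.78-fold lower in young activated FAPs (adjusted p 2.67e-06), with a mean log2 level of 7.57, against 9.83 in young quiescent FAPs. In old FAPs its means were 8.81 in activated and 9.35 in quiescent arrays, a change of -0.54 ± 0.30 (adjusted p 0.186). Nrarp, a feedback inhibitor that Notch signalling switches on, was 7.15-fold lower in young (adjusted p 3.98e-05) and 2.98-fold lower in old activated FAPs (adjusted p 0.0127), and it was detected on 2 and 3 of 6 activated arrays. Hey1, a target in endothelium and other cells, was 5.62-fold lower in young activated FAPs (adjusted p 0.000244), and its log2 change in old FAPs was -0.92 (adjusted p 0.155).

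Mib2, Dtx3 and Dlk1 fell at both ages, while 9 other genes that act on ligands or receptors (Adam17, Psen2, Psenen, Ncstn, Aph1a, Mib1, Neurl1a, Pofut1 and Poglut1) were called at neither age. Mfng, also on the list, was 2.26-fold lower in young activated FAPs (adjusted p 0.0158) and was not called in old FAPs (adjusted p 0.1265). Mib2, a ubiquitin ligase for Notch ligands, was 2.48-fold lower in young and 2.42-fold lower in old activated FAPs (adjusted p 5.14e-05 and 0.000122). Dtx3, of the Deltex family of ubiquitin ligases, was 2.26-fold and 2.83-fold lower (adjusted p 0.00492 and 0.000852). Dlk1, a non-canonical ligand and inhibitor of adipocyte differentiation, was 1.68-fold lower in young (adjusted p 0.00631) and at least 1.37-fold lower in old activated FAPs (adjusted p 0.000425), where no array detected it. The gene that rose was Rbpj, 2.18-fold in old activated FAPs (adjusted p 0.00104), detected on 5 of 6 activated and 1 of 6 quiescent arrays. Rbpj, Mfng and the 9 genes called at neither age were named after their values were seen. Not every fall in the counts is named: Aph1b, Dtx2, Dtx4 and Dner also passed the filter, and the unnamed falls are among them.

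Of 20 further pericyte markers, 18 had probes and 13 passed the filter. With activation 7 of the 13 fell in young and 7 in old FAPs, and none rose, with median log2 changes of -1.51 and -1.05. Vtn, which encodes vitronectin, was 9.61-fold lower in young and 4.22-fold lower in old activated FAPs (adjusted p 1.57e-10 and 4.05e-07). Gucy1a1, a subunit of the nitric oxide receptor, was 6.00-fold and 5.14-fold lower (adjusted p 1.07e-05 and 6.19e-05). Rgs4, a relative of Rgs5, was 20.5-fold and 5.47-fold lower (adjusted p 7.39e-05 and 0.0164). Higd1b and Art3 also fell at both ages, by 5.08-fold and 2.85-fold in young FAPs. Sncg was 3.29-fold lower in young activated FAPs (adjusted p 0.000861) and was not called in old FAPs (adjusted p 0.197). Pdgfrb was not called in young (-0.38, adjusted p 0.233) and was 2.07-fold lower in old activated FAPs (adjusted p 0.00192). Angpt1 was higher at both ages (0.26 and 0.18) without a call. Pdgfrb and Angpt1 were named after their values were seen. Anpep, Cox4i2, Tbx18 and Steap4 were detected on no array.

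Transcripts of other cell types moved in the same comparisons, and in bulk RNA fewer cells of a type and less RNA per cell cannot be told apart. Abundance differed among the FAP and fibroblast markers. Pdgfra, the receptor by which FAPs are usually recognised, had a mean log2 level of 11.69 in young activated and 12.72 in young quiescent FAPs. Gsn was detected on 0 of 6 activated arrays at either age, and Col1a1 did not pass the filter. Gsn and Col1a1 were named after their values were seen. Of 12 measured FAP and fibroblast markers 10 fell in young and 9 in old FAPs. Of 16 measured endothelial markers 15 fell in young (median log2 change -2.76) and 6 in old FAPs (median -0.75). Their summed level ran 2150 to 5633 in young activated FAPs, against 20670 to 39182 in young quiescent FAPs, and 6332 to 11946 in old activated FAPs, against 11195 to 32582 in old quiescent FAPs.

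Among endothelial genes, Robo4 was 12.1-fold and Gpihbp1 11.3-fold lower in young activated FAPs (adjusted p 6.53e-08 and 3.21e-08). They were the 2 of 16 endothelial genes whose activation change was called different between the ages, by 2.94 and 2.77 on the log2 scale (adjusted p 0.00942 and 0.00900). Of all genes, 0.198% were called for that difference. Of 8 smooth muscle markers 3 fell at each age, among them Acta2, 1.89-fold in young and 2.75-fold in old FAPs, and Cnn1 and Synpo2 were detected on no array. All 9 measured macrophage markers rose in young and 8 of 9 in old FAPs, and their summed level reached 6158 to 32075 in young activated FAPs, against 929 to 1754 in young quiescent FAPs. It was 17344 to 31254 in old activated FAPs, against 1450 to 23221 in old quiescent FAPs. The part of any of these cell types in the changes of the 10 genes was not tested.

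**Figure D4:**
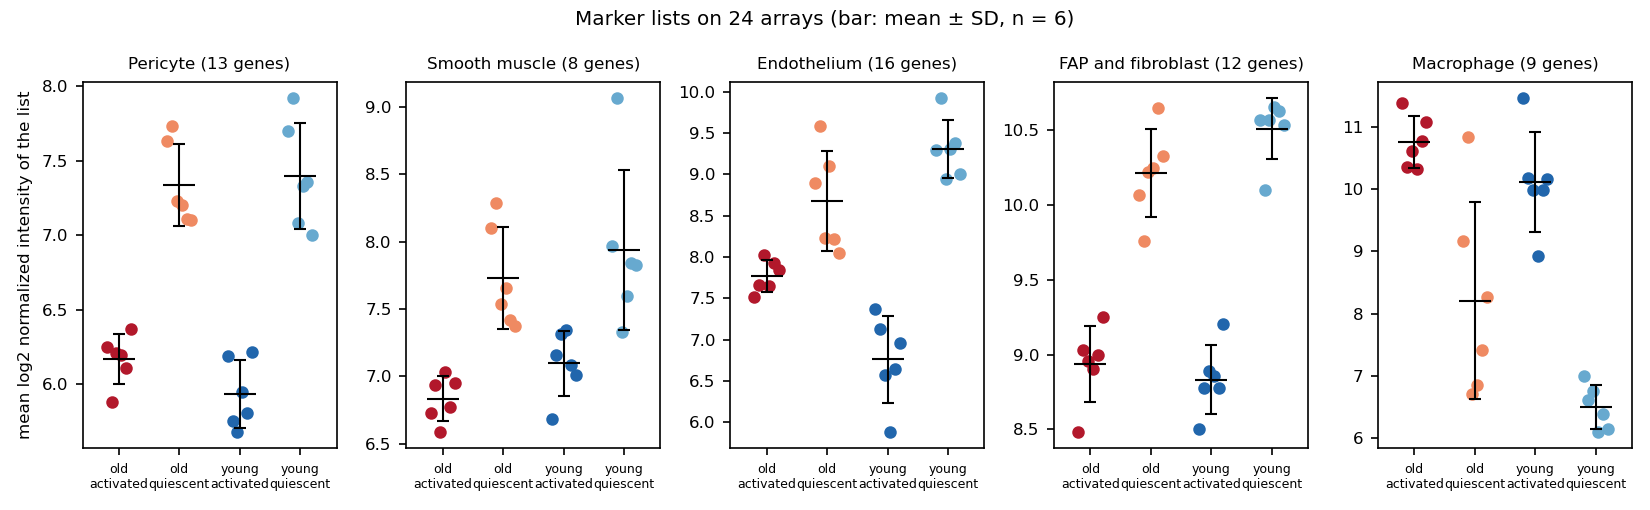
Mean log2 level of each list of marker genes (y axis) on the arrays of the 4 groups (x axis): pericyte (13 genes), smooth muscle (8), endothelium (16), FAP and fibroblast (12) and macrophage (9). Pericyte, endothelial and FAP lists stand lower, and the macrophage list higher, in young activated than in young quiescent FAPs. The means of these lists lie the same way in old FAPs, and the mean of the smooth muscle list is lower in activated FAPs at both ages.

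Markers of the remaining cell types were fewer. Of 7 satellite cell and myoblast genes 1, Chodl, passed the filter, and Pax7, Myf5, Myod1 and Calcr were detected on no array. Of 7 Schwann cell genes 2 passed, and both fell at each age. Of 5 measured muscle fibre genes 4 fell in young and 1 in old FAPs. Of 5 lymphocyte genes 3 were higher in old than in young quiescent FAPs, where 0.607% of all genes were called either way. With activation in old FAPs, 4 of the 5 fell.

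**Figure D5:**
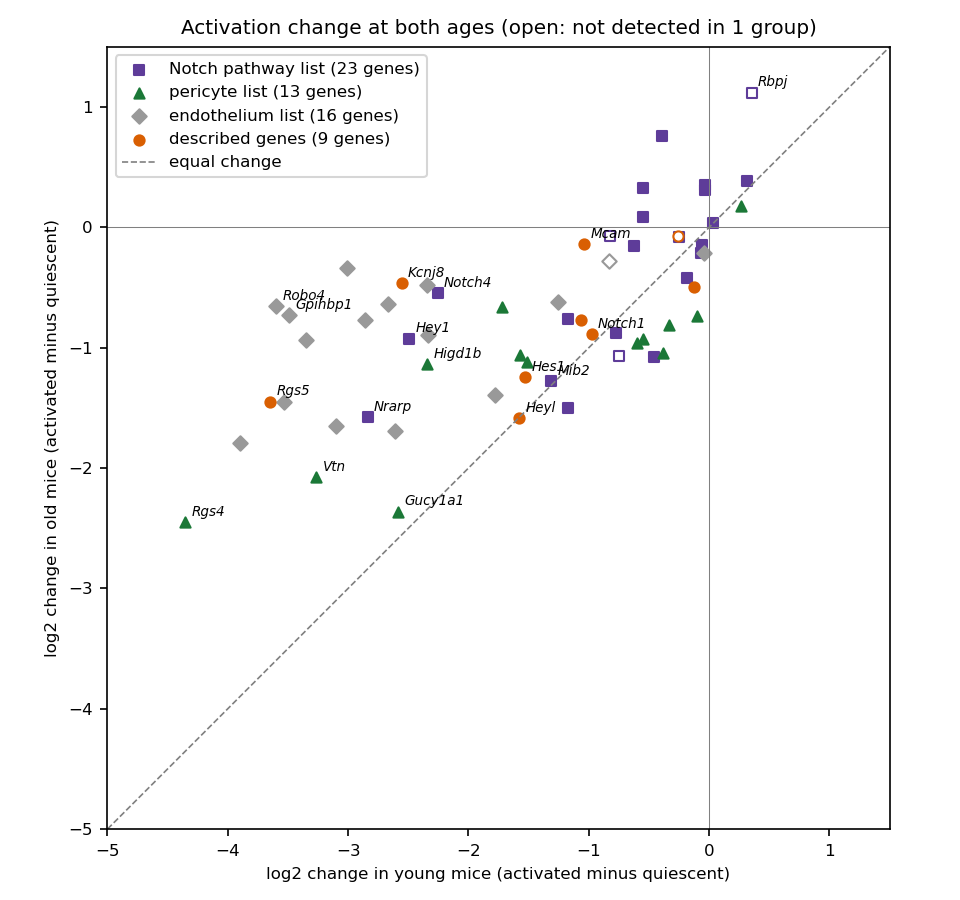
Log2 change with activation in young FAPs (x axis) and in old FAPs (y axis) for the 9 measured genes and for the Notch pathway (23), pericyte (13) and endothelial (16) lists, with open symbols where a group had no detected array. Hes1 and Heyl lie near the line of equal change, and Rgs5, Kcnj8 and most endothelial genes lie where the young change is the more negative. Heyl was detected on 1 of 6 old activated arrays.

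Within groups, pairs of the genes were compared array by array. Over 24 arrays, with each value taken as its deviation from the group mean, Rgs5 and Cspg4 had a Pearson r of -0.52, which was -0.28 without old quiescent array 2 and old activated array 4. In young activated FAPs, for example, the 3 arrays with the lowest Rgs5 had the highest Cspg4. Notch1 and Hes1 had an r of 0.56 (0.35 without the 2 arrays), and Hes1 and Heyl of 0.11. Abcc9 was detected on 7 of 24 arrays, too few for a correlation to be read.

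Set against the mean level of a marker list on the same arrays, Rgs5 varied with the endothelial list (r = 0.61) more closely than with the 13 pericyte genes (r = 0.30). It also had an r of 0.54 with the macrophage list, -0.48 with the FAP and fibroblast list, -0.44 with the lymphocyte list and 0.16 with the smooth muscle list. Mcam had an r of 0.71 with the pericyte list and 0.62 with the endothelial list, and Heyl had -0.20 with the endothelial list. Notch3 had 0.64 with the smooth muscle list, 0.57 with the endothelial list and -0.61 with the FAP and fibroblast list. These values describe arrays that share their normalization and the amount of signal on each array.

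Among all measured genes, the one most like Rgs5 over the 24 arrays was Slc6a6, a taurine transporter, with an r of 0.91 (0.88 without the 2 arrays). Cox5a and Spcs1 came next, at 0.85 and 0.84 (0.71 and 0.62 without the 2 arrays). The closest to Kcnj8 were Mgst2, Fblim1 and Fzd6 (r = 0.78, 0.78 and 0.73), and to Heyl Cox6b2, Vars2 and Rprd1b (r = 0.66, 0.64 and 0.63). For Notch1 they were Mlec, Actn1 and Sirt7 (0.82, 0.81 and 0.78, and 0.75, 0.65 and 0.64 without the 2 arrays), and for Hes1 1110059E24Rik, Rpusd4 and Pter (0.82, 0.75 and 0.75, and 0.73, 0.56 and 0.61 without them). For Cspg4 the gene most alike was Slc6a9 (0.81), for Mcam Ambp (0.72) and for Notch3 Pde2a (0.75). Each was picked as the highest among the correlations with all 7576 named genes, and none of these genes is another of the 10.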

How the data were processed

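For each probe on each of 24 arrays, the deposited table held an intensity, not normalized per the file headers, and a detection p-value. A table of log2 values that the authors normalized and deposited served as an alternative, and it differed from quantile-normalized log2 intensities with no background step by no more than 0.118. Partek is named in the submitters' processing notes, without a version or what it was used for. Arrays give no counts, so precision rests on how many arrays each group has. From 6587 to 9943 probes were detected per array (detection p under 0.01), and arrays within a group had a median correlation of 0.952, 0.951, 0.940 and 0.908 in young activated, young quiescent, old activated and old quiescent FAPs.

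The function nec of limma 3.58.1 (R 4.3.3) removed background by means of the detection p-values, with an offset of 16. Quantile normalization and log2 followed, and figures were drawn with matplotlib 3.10.9. The brightest probe that passed stood for a gene, giving 7576 named genes and 572 unnamed probes, 8148 features. One limma model (lmFit, eBayes) with a mean for each of 4 groups over all 24 arrays gave 5 contrasts. Benjamini-Hochberg adjustment ran over the 8148 features, with calls at an adjusted p under 0.05. The p-values measure the spread between these arrays. Each log2 change is given with limma's moderated standard error (SE). Arrays "on a side" are those of the first group beyond the other group's mean. Where no array of a group detected a gene, a fold is a bound written "at least", with the undetected group raised to the lowest detected signal of each array. Summed levels add the unlogged normalized signals of a list. The fit was tested on simulated data with known changes.

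The 10 genes and all marker lists were chosen with earlier results of these data known, so list counts are not independent support. Des stood in both the pericyte and the smooth muscle list. Named are the 10 genes, up to 6 called genes per list with the smallest adjusted p, and up to 3 genes most like each of those measured, Abcc9 apart. Of the FAP and fibroblast, macrophage and other cell type lists, up to 3 genes by signal could be named. Alternatives changed the background correction, offset, normalization, filter, probe rule, array weights, groups in the fit and arrays included. Deviations of same-numbered arrays of different groups had a median r of 0.0519 over 36 pairs (range -0.0903 to 0.365). Other-numbered arrays had a median r of -0.0104 over 180 pairs (range -0.331 to 0.413). With a difference this small, the numbers were not taken to pair the arrays. Promoters came from the RefSeq table of GRCm38.p6.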

Additional observations from a re-analysis of the deposited data

Results flagged for a closer look

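Within each of 36 groups of 6 arrays (9 genes in 4 groups), the highest or lowest array was compared with its nearest neighbour relative to the group's range, and 3 stood out past the critical ratio of Dixon's test. Chance alone marks about 1 in 20 such groups. Old activated array 4 had Rgs5 at 4.16 on the log2 scale, with the next array at 8.33. This array also had the fewest detected probes, 6587. For Abcc9, which was near the detection limit, young quiescent array 6 stood at 5.65 with the next array at 4.95, and old quiescent array 3 stood at 5.60 with the next at 4.91.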

How the results depend on the processing

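Over 1526 changes of the 9 genes recomputed under alternatives, 1448 kept their direction and their side of the threshold. Calls were lost 16 times, each for Notch1, and gained 7 times, for Notch3 in old FAPs and for Rgs5 in the difference between the ages, and 55 changes turned direction without being called either way. With probes detected on all 24 arrays, Notch1 was the one gene left, so 1 was called at each age, where fewer genes were tested. Leaving out 1 array gave 5 to 6 called genes in young and 2 to 4 in old FAPs. Without old quiescent array 2 and old activated array 4, chosen after seeing the data, 1 difference between the activation changes was called (Rgs5). With array numbers as a replicate block, 6 and 3 genes were called, as without it, and no call among the 9 changed. Notch1 in old FAPs was not called with array weights (-0.62), without a filter (also lost in young FAPs), with the old groups alone or without both arrays (-0.43, adjusted p 0.254). Directions turned for Mcam in old with the mean of its probes (0.14), for Heyl's difference between activation changes without background correction (0.11), with an offset of 50 (0.14), with cyclic loess (0.11) and on the authors' values (0.10), and for Notch1 in activated FAPs by age with loess (0.0376) and array weights (0.17). Without both arrays they turned for Notch1 (0.26) and Hes1 (0.0256) in activated FAPs by age, Notch3 in quiescent FAPs by age (-0.0845), and the differences between activation changes of Heyl (0.00399) and Cspg4 (-0.23). Leaving out 1 array gave ranges that crossed 0 for activation in old FAPs of Abcc9 (-0.20 to 0.0717) and Mcam (-0.26 to 0.0188), and in young FAPs of Notch3 (-0.19 to 0.0187). So did age in quiescent FAPs for Abcc9 (-0.18 to 0.10), Mcam (-0.18 to 0.11), Notch1 (-0.29 to 0.0103) and Notch3 (-0.0845 to 0.17), and in activated FAPs for Hes1 (-0.26 to 0.0256) and Notch1 (-0.19 to 0.26). Differences between the activation changes ran -0.13 to 0.61 for Cspg4, -0.12 to 0.14 for Heyl and -0.0572 to 0.39 for Notch1. The cause was not tested. Over all genes, 1502 and 1291 were called for activation in young and old FAPs with probes detected on every array. For age, alternatives other than leaving out 1 array gave 2 to 78 genes in quiescent and 16 to 132 in activated FAPs, and 9 to 42 for the difference between activation changes.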
